A study of Homo sapiens with 18 samples.

Results

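SRF-FOXO1 and SRF-RELA are gene fusions that join serum response factor (SRF) to a second transcription factor, and they were compared here with each other in 6 of the 18 libraries of the series, 3 for each fusion. The members were chosen by label, as the libraries SRF-FOXO1 1 to 3 and SRF-RELA 1 to 3. All the cells were MSC-hTERT, human mesenchymal stem cells immortalized with telomerase, grown in serum with FGF-2, ascorbic acid and heparin. Both groups carry a fusion, so neither is an unmodified control. The other groups carry pMSCV (used below as the vector control, since it names a retroviral backbone), SRF, SRF-ICA1L or SRF-PDGFRB, also with 3 libraries each, and their levels are given below only as reference points. The labels do not say whether a line is a clone or a pool, or whether its 3 libraries came from separate cultures, so p-values measure the spread between these libraries.

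SRF binds CArG boxes in the promoters of immediate early, cytoskeletal and muscle genes, and it is driven by cofactors that respond to actin (the myocardin-related factors) or to growth factors (the ternary complex factors). RELA is the p65 subunit of NF-kB, which activates inflammatory genes and its own inhibitors. FOXO1 is a forkhead factor that activates genes of cell cycle arrest, stress resistance and metabolism when insulin and growth factor signalling is low. Fusions of SRF occur in soft tissue tumours with muscle-like features. The comparison asks whether the fused partner matters for the genes that change.

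The 6 libraries held between 21618533 and 29806771 counts, and between 26794 and 28058 genes had at least 1 count. Values below are CPM, a gene's count relative to the total count of its library, as mean ± SD with n = 3 or library by library. Each of the 12 mesenchymal markers (among them NT5E, THY1, ENG and CD44) was over 1 CPM in each of the 6 libraries. The 12 include TERT, the telomerase gene, whose detection in cells immortalized with telomerase does not bear on cell type. Of 12 blood cell markers, 0 were over 1 CPM in all 6, and CD3E, TYROBP and HBB had no count. Over 1 CPM in all 6 were 4 of 10 epithelial, 3 of 10 endothelial and 4 of 10 neural markers. Summed neural markers ranged from 40.2 to 61.9 CPM in SRF-FOXO1 and from 30.5 to 51.2 CPM in SRF-RELA. Summed epithelial markers ranged from 101 to 239 CPM in SRF-FOXO1 and from 81.2 to 161 CPM in SRF-RELA, and summed endothelial markers from 141 to 364 and from 136 to 338 CPM. These are bulk libraries, in which fewer cells expressing a gene and less RNA per cell cannot be told apart.

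The genes of the constructs were examined first. RELA (ENSG00000173039) was at 85.99, 85.8 and 88.2 CPM in SRF-FOXO1 libraries 1 to 3, and at 267, 234 and 268 CPM in SRF-RELA. The groups did not overlap, and the SRF-FOXO1 values lay close to the pMSCV mean of 93.3 CPM. RELA was thus 2.90-fold lower in SRF-FOXO1, or -1.54 in log2 units (adjusted p 4.46e-08 in edgeR, SE 0.08). Counts of RELA hold native and fusion transcripts together.

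SRF (ENSG00000112658) was at 151, 211 and 183 CPM in SRF-FOXO1 and at 326, 324 and 328 CPM in SRF-RELA. The 3 SRF-RELA libraries were nearly equal and all above the SRF-FOXO1 libraries, whose SD was 29.96 CPM against 2.25 CPM. The log2 fold change of SRF was -0.81 (adjusted p 0.468 in edgeR, SE 0.23). With the replicate number in the model it was -0.81 (adjusted p 0.150 in edgeR, SE 0.22), with a 95% interval from -1.29 to -0.33, so SRF was not called in either edgeR fit. It was called by the DESeq2 Wald test with the block (adjusted p 0.0297) and not without it (adjusted p 0.149). The level of SRF, which both fusions carry, thus accompanies every other difference between the groups, and its part in them cannot be told apart from that of the partner gene.

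FOXO1 (ENSG00000150907) was at 14.4, 7.63 and 7.35 CPM in libraries 1 to 3 labelled SRF-FOXO1 and at 11.9, 12.3 and 10.4 CPM in SRF-RELA. The groups overlapped, and only library 1 was higher in SRF-FOXO1. Its log2 fold change was -0.23 (adjusted p 0.819 in edgeR, SE 0.37), so the FOXO1 count does not check the label, and SRF-FOXO1 stands below for the libraries labelled so.

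**Figure D1:**
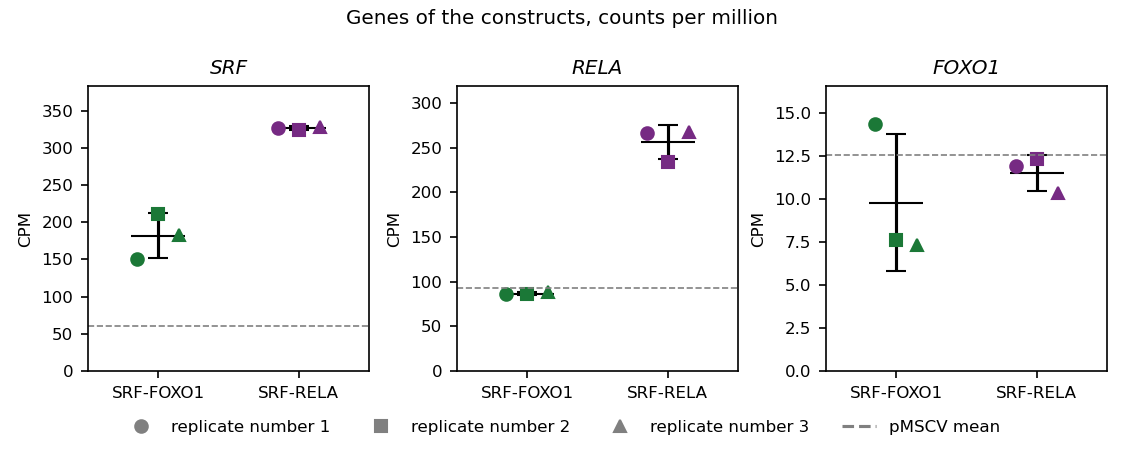
CPM of SRF, RELA and FOXO1 (linear axes from 0) in each library of the 2 fusions; bars give the mean and SD of 3 libraries, marker shapes the replicate number, and the dashed line the pMSCV mean. RELA and SRF are higher in the 3 SRF-RELA libraries without overlap, and FOXO1 overlaps between the groups.

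Across 18544 tested genes, few genes passed the test between the fusions. Calls were made below an adjusted p-value of 0.05. In edgeR's quasi-likelihood fit over the 18 libraries, 1 gene was called, RELA itself, which is 0.00539% of those tested. At an unadjusted p-value under 0.05 there were 1933 genes (10.4%), 1141 higher (6.15%) and 792 lower (4.27%) in SRF-FOXO1. The DESeq2 Wald test called 20 genes (0.108%), 11 higher (0.0593%) and 9 lower (0.0485%). Without SRF-FOXO1 library 1, 7 genes were called.

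The replicate numbers paired the libraries by their values. Deviations from the group mean correlated at 0.34, 0.40 and 0.38 for libraries 1, 2 and 3 of both fusions, and between -0.29 and -0.09 for the 6 pairs with unequal numbers. Deviations cancel within a group, so positive values for equal numbers force negative ones, on average, for unequal numbers. The negative values are therefore no separate evidence of pairing. The labels do not say what a number marks. With the number as a block in the edgeR model, 31 genes were called (0.167% of those tested), 20 higher (0.108%) and 11 lower (0.0593%) in SRF-FOXO1. Each of the 31 differed in the same direction in 3 of 3 pairs. The block fit selects genes that agree within these same pairs, so this adds no separate support for the calls. In 27 of them the groups did not overlap, 17 higher and 10 lower, and the share of all tested genes without overlap was 15.6% (5.81% higher, 9.79% lower). Besides RELA, these genes had edgeR adjusted p-values between 0.212 and 0.529 without the block. The DESeq2 Wald test without the block called 11 of the 31, among them RELA, EXTL1, GLRA3 and CTPS1.

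The size of the 31 depended on the count filter and on single libraries. With the block, 252 genes were called with no filter, and 9 with at least 10 counts in every library, a filter that left 20 of the 31 to be tested and 9 of them called. With the block, the count was 6 without SRF-FOXO1 library 2, 8 to 10 without each SRF-RELA library in turn, 67 without SRF-FOXO1 library 1 and 53 without SRF-FOXO1 library 3. RELA, ITIH3, EXTL1 and ENSG00000288781 were called in each of the 6 fits without 1 library. Every other gene of the 31 lost its call in at least 1 of these fits. GLRA3 and NIPAL4 were called in 5 of the 6, PLAU, CTPS1, TUBB6 and HTR1B in 2, and SLC5A3, COTL1 and FAXDC2 in 1. The DESeq2 Wald test with the block called 300 genes (1.62%), 171 higher (0.922%) and 129 lower (0.696%), of which 29 were among the 31. GLRA3 had an adjusted p-value of 0.402 in that test, against 0.000616 in DESeq2 without the block. MYOZ1 received none in DESeq2 with the block.

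Most genes were bounded within a 2-fold difference. Such a bound does not show equality: the interval of COTL1, a called gene, ran from 0.40 to 0.90 with the block. The 95% interval of the log2 fold change lay inside -1 to 1 for 12065 of the 18544 genes (65.1%) without the block and for 13227 (71.3%) with it. Among genes whose mean log2 CPM was 1 or more, these shares were 85.1% and 91.3%. The median half-width of the interval was 0.49 without and 0.39 with the block. For the remaining genes the interval reached beyond a 2-fold difference.

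**Figure D2:**
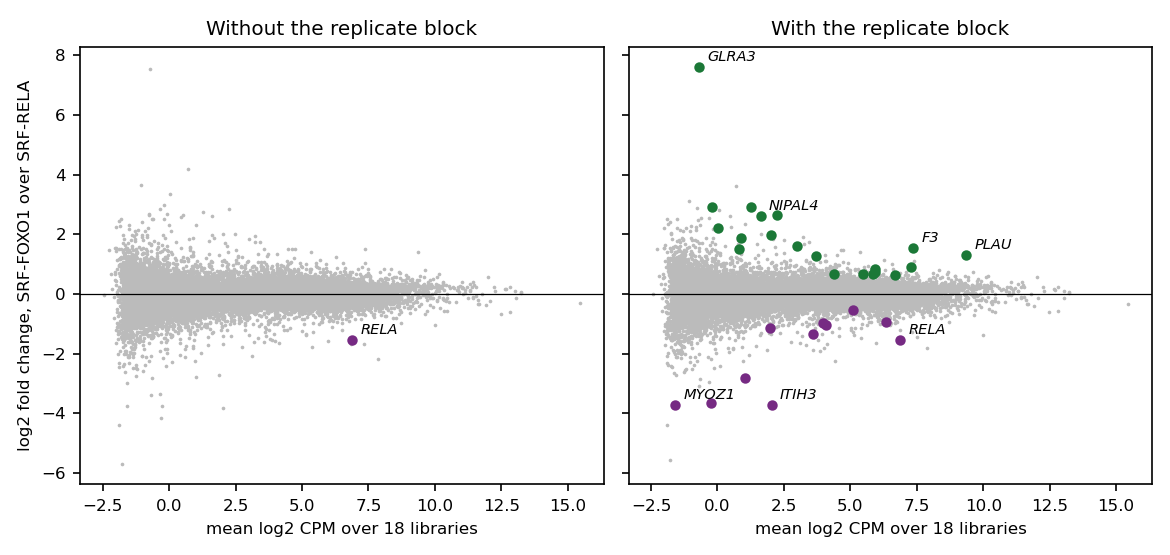
Log2 fold change of SRF-FOXO1 over SRF-RELA against mean log2 CPM for the 18544 tested genes, without (left) and with (right) the replicate block; green and purple points are genes called higher and lower in SRF-FOXO1, grey points were not called. One gene, RELA, is coloured on the left and 31 on the right, 20 of them above 0.

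The genes called lower in SRF-FOXO1 with the block were led by genes nearly silent in pMSCV. ITIH3 (ENSG00000162267), a heavy chain that binds hyaluronan in the matrix, was at 0.403, 1.64 and 0.463 CPM in SRF-FOXO1 and at 3.95, 24.8 and 7.69 CPM in SRF-RELA. Library 2 was the highest of its group in both fusions, and no SRF-FOXO1 value reached an SRF-RELA value. The fold was 13.2, with a log2 fold change of -3.72 (adjusted p 1.81e-06 in edgeR with the block, SE 0.25). The mean of ITIH3 in pMSCV was 0.0143 CPM, below both fusions.

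EXTL1 (ENSG00000158008), an exostosin-like glycosyltransferase of heparan sulfate synthesis, was at 0.335, 0.979 and 0.509 CPM in SRF-FOXO1 and at 2.67, 6.07 and 4.09 CPM in SRF-RELA. The groups did not overlap, and the log2 fold change was -2.81 (adjusted p 0.00505 in edgeR with the block, SE 0.37). KRT12 (ENSG00000187242), the keratin of the corneal epithelium, was at 0.0671, 0.352 and 0.0463 CPM against 0.755, 4.07 and 1.75 CPM, a log2 fold change of -3.66 (adjusted p 0.0256 in edgeR with the block, SE 0.61). Its call was lost in 5 of the 6 fits with the block that left out 1 library.

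CDH3 (ENSG00000062038), P-cadherin, was at 4.86, 20.4 and 10.1 CPM in SRF-FOXO1 and at 16.97, 50.1 and 21.5 CPM in SRF-RELA. The groups overlapped because library 2 was high in each, while within pairs SRF-FOXO1 was lower in 3 of 3. Its log2 fold change was -1.35 (adjusted p 0.0219 in edgeR with the block, SE 0.20). Both fusions were far above pMSCV, where CDH3 had no count in any library, which allows 0.104 to 0.129 CPM at 3 counts, a limit that covers counting error only.

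MYOZ1 (ENSG00000177791), a calcineurin-binding protein of the Z-disc of striated muscle, had 1 count in each SRF-FOXO1 library and 12, 26 and 7 counts in SRF-RELA. The ratio of summed CPM, SRF-RELA over SRF-FOXO1, was 15.4, with a 95% counting interval from 4.94 to 77.5 (exact binomial). MYOZ1 was called with the block (edgeR adjusted p 0.0369) and in 1 of the 6 fits without 1 library.

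Other genes called lower were expressed in pMSCV as well. SLC5A3 (ENSG00000198743), the sodium and myo-inositol cotransporter, was at 55.1, 62.4 and 60.7 CPM in SRF-FOXO1 and at 111, 119.9 and 115 CPM in SRF-RELA, with a pMSCV mean of 68.3 CPM. The values were tight in each group, and the log2 fold change was -0.93 (adjusted p 0.0369 in edgeR with the block, SE 0.17). Its call was kept in 1 of the 6 fits with the block that left out 1 library.

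LRRTM2, a synaptic adhesion protein, COL24A1, a fibrillar collagen, and FAXDC2, a protein with a fatty acid hydroxylase domain, were also called lower. Their log2 fold changes with the block were -1.13, -1.04 and -0.55 (edgeR adjusted p 0.0256, 0.0276 and 0.0369). For each of the 3, the SRF-FOXO1 libraries did not overlap the SRF-RELA libraries.

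Among the genes called higher in SRF-FOXO1, GLRA3 (ENSG00000145451), the alpha-3 subunit of the glycine receptor, had the smallest adjusted p-value. It was at 1.11, 6.03 and 2.45 CPM in SRF-FOXO1, 240 counts in all, and had 1 count in all in SRF-RELA, in library 2. The ratio of summed CPM was 234, with a 95% counting interval from 41.6 to 9271 (exact binomial, which covers counting error only). It was called with the block (edgeR adjusted p 0.00116), and without SRF-FOXO1 library 2 the adjusted p-value was 0.175. No library of pMSCV, SRF or SRF-ICA1L held a count of GLRA3.

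F3 (ENSG00000117525), tissue factor, the starter of the coagulation cascade, was at 324, 659 and 539.8 CPM in SRF-FOXO1 and at 105, 206 and 242 CPM in SRF-RELA. Each SRF-FOXO1 library was above every SRF-RELA library, and both groups were above the pMSCV mean of 60.1 CPM. The log2 fold change of F3 was 1.55 (adjusted p 0.0153 in edgeR with the block, SE 0.23). PLAU (ENSG00000122861), urokinase, the activator of plasminogen, was at 853, 2574 and 1089 CPM against 382, 749.9 and 636 CPM. Library 2 stood highest in both groups, the groups did not overlap, and the log2 fold change was 1.31 (adjusted p 0.0326 in edgeR with the block, SE 0.23).

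NIPAL4 (ENSG00000172548), a magnesium transporter of the epidermis, was at 5.27, 23.9 and 5.74 CPM in SRF-FOXO1 and at 0.666, 4.24 and 0.919 CPM in SRF-RELA. Within each pair SRF-FOXO1 was higher, and the log2 fold change was 2.61 (adjusted p 0.00471 in edgeR with the block, SE 0.34). ENSG00000288781, for which no gene symbol was found, was at 1.14, 5.72 and 2.96 CPM against 0.222, 0.456 and 0.585 CPM, a log2 fold change of 2.92 (adjusted p 0.00162 in edgeR with the block, SE 0.35).

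RGS9 and HTR1B were also called higher. RGS9 (ENSG00000108370), which ends G protein signals in photoreceptors and striatal neurons, was at 3.66, 13.2 and 7.72 CPM in SRF-FOXO1 and at 0.666, 0.596 and 2.55 CPM in SRF-RELA. The groups differed by a log2 fold change of 2.92 (adjusted p 0.0192 in edgeR with the block, SE 0.45). HTR1B, a serotonin receptor, was at 5.44, 20.9 and 12.6 CPM against 1.60, 4.80 and 3.51 CPM, a log2 fold change of 1.96 (adjusted p 0.0208 in edgeR with the block, SE 0.31). Neither gene overlapped between the groups.

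CTPS1, TUBB6 and COTL1 rose by less than 2-fold. CTPS1 (ENSG00000171793), CTP synthase, was at 82.2, 111 and 90.1 CPM in SRF-FOXO1 and at 49.2, 52.6 and 57.8 CPM in SRF-RELA, where its mean of 53.2 CPM lay close to that of pMSCV, 50.9 CPM. Its log2 fold change was 0.85 (adjusted p 0.0192 in edgeR with the block, SE 0.13). TUBB6, a beta-tubulin, was at 209, 267 and 275 CPM against 110.4, 159.9 and 141 CPM, a log2 fold change of 0.89 (adjusted p 0.0256 in edgeR with the block, SE 0.15). COTL1, the coactosin-like protein that binds filamentous actin, was at 165, 157 and 147 CPM against 95.9, 112 and 95.9 CPM, a log2 fold change of 0.65 (adjusted p 0.0375 in edgeR with the block, SE 0.12).

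A set of 3 type II keratins was called higher. KRT81, a hair keratin, was at 4.16, 35.2 and 7.77 CPM in SRF-FOXO1 and at 0.977, 4.14 and 1.71 CPM in SRF-RELA, and KRT86, another hair keratin, had a log2 fold change of 2.23. KRT80 was at 2.82, 44.6 and 19.5 CPM against 1.55, 11.7 and 6.18 CPM. The log2 fold changes of KRT81 and KRT80 were 2.66 and 1.62, and the edgeR adjusted p-values of KRT86, KRT81 and KRT80 with the block were 0.0256, 0.0354 and 0.0410. KRT81 and KRT86 are close paralogs, so their reads could have been split between them. In each group library 2 was the highest and library 1 the lowest for KRT81, KRT86 and KRT80. KRT12 went the other way, as given above.

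The remaining named genes called higher were TPD52L1, of the tumour protein D52 family, with a log2 fold change of 1.28 (adjusted p 0.0208 in edgeR with the block, SE 0.20), and C12orf75 with 0.68 (adjusted p 0.0326 in edgeR with the block, SE 0.12). A further 5 genes fell outside the rule for naming genes and are given as further called genes, a choice made after their values were known. They were ITGA6, an integrin subunit for laminin, SSTR1, a somatostatin receptor, TENT5B, a nucleotidyltransferase, AGTR1, the angiotensin II receptor type 1, and EFNB2, ephrin-B2. Their log2 fold changes with the block were 0.72, 1.51, 1.89, 0.67 and 0.68 (edgeR adjusted p 0.0445 for the first 4 and 0.0450 for EFNB2).

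**Figure D3:**
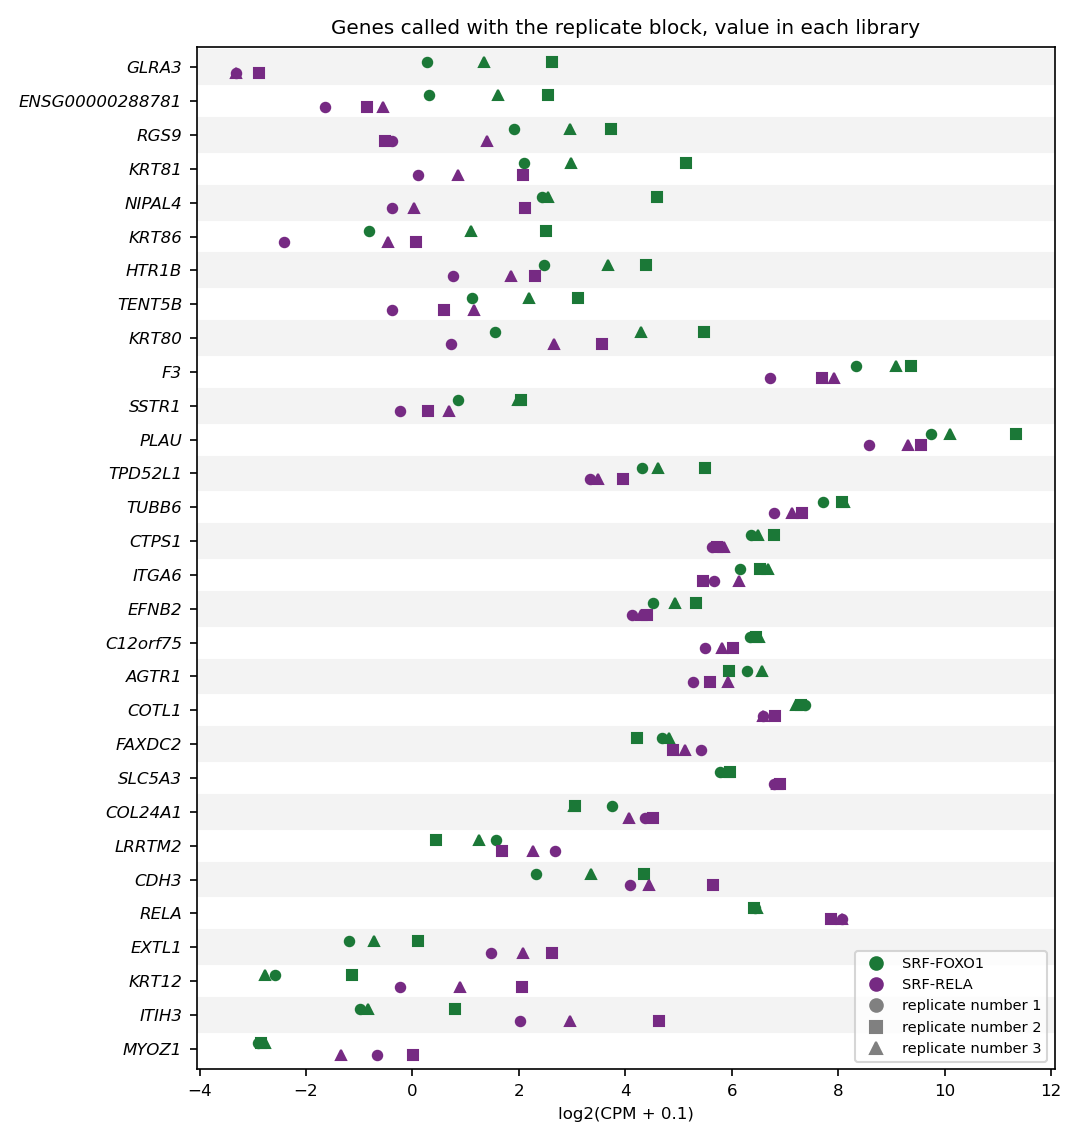
Value in each library, as log2(CPM + 0.1), of 30 of the 31 genes called with the replicate block, in order of log2 fold change; green is SRF-FOXO1, purple SRF-RELA, and marker shapes give the replicate number. In 26 genes shown the colours do not overlap, and in 14 genes the square of library 2 is the highest of both groups.

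Promoter sequences were read for the called genes, since SRF, FOXO1 and RELA each bind DNA; RefSeq promoters (GRCh38.p14, 250 bases before to 50 after a start) were found for 24 of the 31. The forkhead motif GTAAACA and the CArG box, searched on both strands, were found in 0 of the 24, against 4.19% and 1.60% of 27305 gene symbols in the table and 3.69% and 1.65% of the 12153 that were tested. The kappaB consensus was found in 3 of the 24 (12.5%): NIPAL4 and TENT5B, higher in SRF-FOXO1, and MYOZ1, lower, against 13.3% of all symbols and 16.8% of those tested. A match is a description of letters, not a site in use. The 250 bases before the start are shown for NIPAL4 (chr5:157459963-157460212, plus strand) and MYOZ1 (chr10:73641475-73641724, minus strand) with the kappaB matches in capitals, and for GLRA3 (chr4:174829248-174829497, minus strand) and ITIH3 (chr3:52794546-52794795, plus strand), the called genes with the smallest adjusted p-value in each direction besides RELA, which hold none of these motifs. ACTG2 (chr2:73892758-73893007, plus strand), a smooth muscle actin gene high in both fusions, is shown for its CArG boxes, in capitals, whose first bases lie 110 and 73 bases before the start.
NIPAL4: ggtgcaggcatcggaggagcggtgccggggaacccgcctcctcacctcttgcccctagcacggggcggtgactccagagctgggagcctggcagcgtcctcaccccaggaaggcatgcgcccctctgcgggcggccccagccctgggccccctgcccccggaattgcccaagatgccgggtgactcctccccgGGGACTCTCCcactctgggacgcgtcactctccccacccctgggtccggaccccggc
MYOZ1: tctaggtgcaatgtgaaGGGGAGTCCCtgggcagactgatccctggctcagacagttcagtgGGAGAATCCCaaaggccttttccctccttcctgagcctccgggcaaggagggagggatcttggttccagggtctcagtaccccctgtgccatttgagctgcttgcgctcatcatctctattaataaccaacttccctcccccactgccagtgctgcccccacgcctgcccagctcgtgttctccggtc
GLRA3: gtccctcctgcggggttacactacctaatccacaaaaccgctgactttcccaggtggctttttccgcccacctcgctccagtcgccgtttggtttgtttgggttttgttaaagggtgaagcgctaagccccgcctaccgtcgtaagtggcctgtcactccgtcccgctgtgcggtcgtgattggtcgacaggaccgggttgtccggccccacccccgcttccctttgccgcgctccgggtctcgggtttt
ITIH3: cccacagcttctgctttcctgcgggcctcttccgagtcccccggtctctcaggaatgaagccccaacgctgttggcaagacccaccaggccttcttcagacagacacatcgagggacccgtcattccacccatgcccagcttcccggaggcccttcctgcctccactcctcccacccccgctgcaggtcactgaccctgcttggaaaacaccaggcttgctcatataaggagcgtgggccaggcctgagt
ACTG2: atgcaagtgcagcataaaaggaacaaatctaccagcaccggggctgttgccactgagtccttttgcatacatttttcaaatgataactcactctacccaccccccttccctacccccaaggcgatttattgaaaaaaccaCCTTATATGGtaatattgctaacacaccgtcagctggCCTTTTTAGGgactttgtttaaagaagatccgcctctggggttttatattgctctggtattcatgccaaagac

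Gene lists by function are described next by counts and medians, beside the median log2 fold change of all tested genes, 0.02 without and 0.01 with the block. Of all 18544 tested genes, 9624 had a positive log2 fold change with the block. Members of a list can vary together, so counts of signs are descriptions and not replicates. By the DESeq2 Wald test without the block, DUSP2 was the only member called in the 17 lists; its calls with the block are given list by list where there were any. Smooth muscle genes (15 of 21 tested) had a median of 0.29 without and 0.26 with the block. In neither edgeR fit was a member called. DESeq2 with the block called 3 higher and 1 lower, against 0.922% and 0.696% of all tested genes. At an unadjusted p-value under 0.05 in edgeR with the block 6 were higher and 2 lower, against 10.1% and 7.79% of all genes, 17.9% in all. ACTG2 (ENSG00000163017) was at 396, 590.3 and 485 CPM in SRF-FOXO1 and at 139.8, 384 and 211 CPM in SRF-RELA. The groups did not overlap, and both were far above the pMSCV mean of 6.84 CPM. The log2 fold change between the fusions was 1.11 (adjusted p 0.274 in edgeR with the block, SE 0.50), with a 95% interval from 0.02 to 2.20.

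ACTA2, smooth muscle alpha-actin, was at 69.6, 348 and 135 CPM in SRF-FOXO1 and at 49.3, 140.3 and 55.4 CPM in SRF-RELA. TAGLN, transgelin, was at 359.5, 1182 and 592 CPM against 258, 658 and 399 CPM. Both were higher in SRF-FOXO1 within 3 of 3 pairs and highest in library 2, with overlap between the groups. Their log2 fold changes with the block were 1.14 and 0.67 (edgeR adjusted p 0.231 and 0.252). Because actin genes are close paralogs, the split of reads among them is uncertain.

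CNN1, calponin, and MYH11, smooth muscle myosin, had log2 fold changes with the block of 0.30 and -0.29, with 95% intervals from -0.25 to 0.86 and from -1.57 to 0.98. In the fit without the block both signs rested on single libraries. There CNN1 was at -0.32 when SRF-FOXO1 library 2 was left out, and MYH11 at 1.33 when SRF-RELA library 2 was left out. With the block, MYH11 was at 0.81 when SRF-RELA library 2 was left out, and CNN1 kept its sign whichever library was left out. SYNPO2, synaptopodin-2, which binds actin at the Z-disc and in smooth muscle, was at 4.60, 17.3 and 18.6 CPM against 3.11, 6.10 and 5.68 CPM, and its log2 fold change of 1.37 missed the threshold in edgeR (adjusted p 0.0657 with the block, SE 0.28) and passed it in DESeq2 with the block (adjusted p 0.0013).

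Cytoskeletal SRF targets (30 of 31 tested) had a median of 0.30 in both fits, and 27 of the 30 had a positive log2 fold change with the block. None was called in edgeR in either fit. DESeq2 with the block called 2 higher and 1 lower, against 0.922% and 0.696% of all tested genes. At an unadjusted p-value under 0.05, 9 were higher and 1 lower without the block, and 13 and 1 with it. Over all tested genes these shares were 6.15% and 4.27% without the block, and 10.1% and 7.79% with it. The 1 lower gene was SRF, a member that holds construct reads. ACTB, cytoplasmic beta-actin, was at 5297, 6994 and 5321 CPM in SRF-FOXO1 and at 3766, 4421 and 3996 CPM in SRF-RELA. The groups did not overlap, with a log2 fold change of 0.56 (with the block, adjusted p 0.171 in edgeR, SE 0.17, and 0.0458 in DESeq2). VCL, vinculin of the focal adhesion, was at 412, 1203 and 822 CPM against 546, 640.1 and 610.0 CPM, lower in SRF-FOXO1 in pair 1 and higher in pairs 2 and 3. The median of the list was positive in each pair of libraries, at 0.12, 0.34 and 0.22 in pairs 1, 2 and 3, on a scale of log2 ratios of CPM + 0.5.

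Striated muscle genes (14 of 30 tested) had medians of 0.01 and 0.07 and a single called member, MYOZ1, lower with the block. ACTC1, cardiac alpha-actin, was at 2.25, 115 and 29.8 CPM in SRF-FOXO1 and at 1.82, 42.7 and 9.11 CPM in SRF-RELA. Replicate libraries of ACTC1 spanned more than the fusions did, and its log2 fold change was 1.30 (adjusted p 0.230 in edgeR with the block, SE 0.49). SRF cofactors and partners (14 of 16) had a median of -0.10 in both fits with 0 called in edgeR. DESeq2 with the block called 1, ACTB, higher, against 0.922% of all tested genes.

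Immediate early genes, the classic growth factor targets of SRF (27 of 27 tested), had medians of -0.10 and 0.06 with 0 called in edgeR. At an unadjusted p-value under 0.05 there were 0 higher and 2 lower without the block, and 5 and 3 with it. The shares of all tested genes were 6.15% and 4.27% without the block, and 10.1% and 7.79% with it. FOS was at 706, 12.1 and 431 CPM in SRF-FOXO1 and at 790.3, 32.0 and 407 CPM in SRF-RELA, and EGR1 at 626, 74.7 and 396 CPM against 877, 189 and 419.6 CPM. Both were lowest in library 2 of each group, by more than the fusions differed. With the block their log2 fold changes were -0.45 and -0.65, with 95% intervals from -1.12 to 0.22 and from -1.34 to 0.04. DUSP2, a phosphatase of MAP kinases, was at 1.24, 0.274 and 0.786 CPM against 2.40, 5.36 and 3.22 CPM. It did not overlap between groups and had a log2 fold change of -2.25 (adjusted p 0.0929 in edgeR with the block, SE 0.51). DESeq2 called it lower without (adjusted p 0.0105) and with the block (adjusted p 0.00119).

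NF-kB genes were examined because RELA is an NF-kB subunit. The list of target cytokines and adhesion genes (37 of 38 tested) had a median of -0.59 without and -0.74 with the block, and 33 of 37 members were negative with it. A single member was called, PLAU, with the opposite sign. At an unadjusted p-value under 0.05, 1 was higher and 3 lower in either fit. Of all tested genes, 6.15% were higher and 4.27% lower without the block, and 10.1% and 7.79% with it. The pairs differed: the median log2 ratio was 0.66 in pair 1, -1.35 in pair 2 and -0.96 in pair 3. CXCL8, the neutrophil chemokine, was at 192, 32.1 and 26.9 CPM in SRF-FOXO1 and at 56.5, 394 and 142 CPM in SRF-RELA. It was thus higher in SRF-FOXO1 in pair 1 and lower in pairs 2 and 3, with a log2 fold change of -1.43 (SE 1.19, 95% interval from -4.05 to 1.18, edgeR adjusted p 0.520 with the block). IL6 followed the same order, at 13.7, 3.88 and 3.84 CPM against 8.44, 21.1 and 4.22 CPM. For CXCL8 the SRF-RELA mean of 198 CPM was not above that of pMSCV, 256 ± 233 CPM. For IL6 these means were 11.2 CPM in SRF-RELA and 14.4 ± 11.8 CPM in pMSCV.

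NF-kB subunits and inhibitors (24 of 24 tested, RELA not among them) had a median of -0.13 in both fits with 0 called in edgeR. At an unadjusted p-value under 0.05, 1 was higher and 3 lower with the block, near the share of all tested genes, 17.9% in all. REL, the c-Rel subunit, was at 3.69, 9.55 and 5.83 CPM in SRF-FOXO1 and at 12.3, 11.8 and 12.0 CPM in SRF-RELA, without overlap. Its log2 fold change was -0.93 (adjusted p 0.226 in edgeR with the block, SE 0.35), and its mean in pMSCV was 10.9 CPM, close to SRF-RELA. TNFAIP3, the A20 inhibitor of NF-kB, was at 36.2, 27.7 and 18.5 CPM against 37.2, 81.1 and 46.3 CPM, a log2 fold change of -1.01 (adjusted p 0.243 in edgeR with the block, SE 0.41). Its mean in pMSCV was 45.3 ± 17.7 CPM, against 54.8 ± 23.2 CPM in SRF-RELA. NFKBIA, the inhibitor IkB-alpha, overlapped between the groups, with a 95% interval from -0.95 to 0.36. Interferon response genes (30 of 31) were negative for 28 of 30 with the block, with a median of -0.32 and 0 called in edgeR or DESeq2. The median log2 ratio of the interferon list was 0.11 in pair 1, -0.72 in pair 2 and -0.33 in pair 3, so pair 1 went the other way. STAT2, a signal transducer of type I interferon, was at 161, 146 and 148 CPM against 200.4, 221 and 196 CPM (edgeR adjusted p 0.213 with the block).

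FOXO factors and targets (29 of 35 tested, FOXO1 not among them) had a median of -0.02 in both fits. In edgeR 0 were called, and 2 were higher in DESeq2 with the block, against 0.922% of all tested genes. At an unadjusted p-value under 0.05 with the block 4 were higher and 5 lower, against 10.1% and 7.79% of all tested genes. GADD45A, a stress gene of growth arrest, was at 37.4, 48.3 and 42.6 CPM in SRF-FOXO1 and at 24.7, 20.5 and 28.0 CPM in SRF-RELA. The groups did not overlap, and its log2 fold change of 0.86 missed the threshold in edgeR (adjusted p 0.0611 with the block, SE 0.17) and passed it in DESeq2 with the block (adjusted p 0.00165). CDKN1B, the p27 inhibitor of cyclin-dependent kinases, was at 40.9, 35.8 and 42.8 CPM against 39.3, 38.3 and 45.8 CPM. Its 95% interval with the block ran from -0.21 to 0.17, and that of TXNIP, a regulator of thioredoxin, from -0.24 to 0.36.

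Cell cycle and replication genes (35 of 35 tested) were positive for 34 of 35 with the block, with a median of 0.47, and 0 were called in edgeR. At an unadjusted p-value under 0.05 there were 0 without the block and 5 with it, all 5 higher. Of all tested genes, 10.4% passed without the block, and 10.1% were higher and 7.79% lower with it. The median log2 ratio was 0.71 in pair 1, -0.10 in pair 2 and 0.70 in pair 3, so pair 2 did not share the difference. Over all tested genes these medians were 0.04, -0.05 and -0.02. CDK1, the mitotic kinase, was at 40.9, 18.4 and 50.05 CPM in SRF-FOXO1 and at 17.3, 17.4 and 30.001 CPM in SRF-RELA (log2 fold change 0.75, SE 0.28, edgeR adjusted p 0.224 with the block). MKI67, which encodes the proliferation antigen Ki-67, was at 49.3, 59.8 and 231 CPM against 72.9, 77.4 and 142 CPM, higher in SRF-FOXO1 only in pair 3, and its log2 fold change was 0.24 without and -0.02 with the block.

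The 3 matrix lists had medians below 0 and 0 called members in edgeR. COL24A1, called lower above, is a collagen gene outside the collagen list. The listed collagens (24 of 24 tested) had a median of -0.18 with the block. At an unadjusted p-value under 0.05, 1 was higher and 6 lower, against 10.1% and 7.79% of all tested genes. COL11A1, of fibrillar collagen XI, was at 33.9, 139 and 85.7 CPM in SRF-FOXO1 and at 35.6, 62.7 and 42.2 CPM in SRF-RELA, both far above the pMSCV mean of 2.31 CPM, with a log2 fold change of 0.81 (adjusted p 0.239 in edgeR with the block, SE 0.33). COL27A1 went the other way without overlap, at 52.3, 53.8 and 56.3 CPM against 76.6, 66.6 and 82.4 CPM (edgeR adjusted p 0.188 with the block).

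Matricellular genes (23 of 24 tested) had a median of -0.09 with the block. At an unadjusted p-value under 0.05, 0 were higher and 2 lower, against 10.1% and 7.79% of all tested genes. THBS2, thrombospondin-2, was at 200.1, 256 and 229.7 CPM against 471, 529 and 387 CPM, without overlap, a log2 fold change of -0.96 (adjusted p 0.181 in edgeR with the block, SE 0.31). TIMP and metalloproteinase genes (15 of 18) had a median of -0.33 with the block. At that threshold 1 was higher and 4 lower, against the same shares of all genes. DESeq2 with the block called 2 lower, against 0.696% of all tested genes. TIMP3, an inhibitor bound to the matrix, was lower in SRF-FOXO1 in 3 of 3 pairs with overlap between the groups, at 1839, 2357 and 2310 CPM against 2017, 2959 and 3092 CPM (95% interval from -0.88 to 0.33). MMP16, a membrane-bound metalloproteinase, was at 121, 59.4 and 97.0 CPM against 186, 96.9 and 129 CPM (with the block, adjusted p 0.150 in edgeR and 0.0420 in DESeq2).

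Of the IGF genes (7 of 10 tested), IGFBP5, an IGF binding protein, was at 85.9, 39.5 and 163 CPM in SRF-FOXO1 and at 152, 121 and 168 CPM in SRF-RELA, lower in 3 of 3 pairs with overlap. IGFBP6 was higher without overlap, at 62.4, 46.9 and 51.3 CPM against 41.3, 37.7 and 38.5 CPM (edgeR adjusted p 0.231 with the block). TGF-beta and YAP-TEAD targets (20 of 20) had a median of 0.11 with the block. Lineage genes of bone, fat and cartilage (8 of 20) had a median of 0.25. PPARG, the master regulator of fat cells, was at 0.570, 3.17 and 1.16 CPM against 0.222, 0.456 and 0.251 CPM, without overlap, a log2 fold change of 2.29 (with the block, adjusted p 0.0963 in edgeR, SE 0.53, and 0.0367 in DESeq2). Antigen presentation genes (18 of 20) had a median of 0.10, and TAP2, a peptide transporter, had a 95% interval from 0.01 to 0.50.

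**Figure D4:**
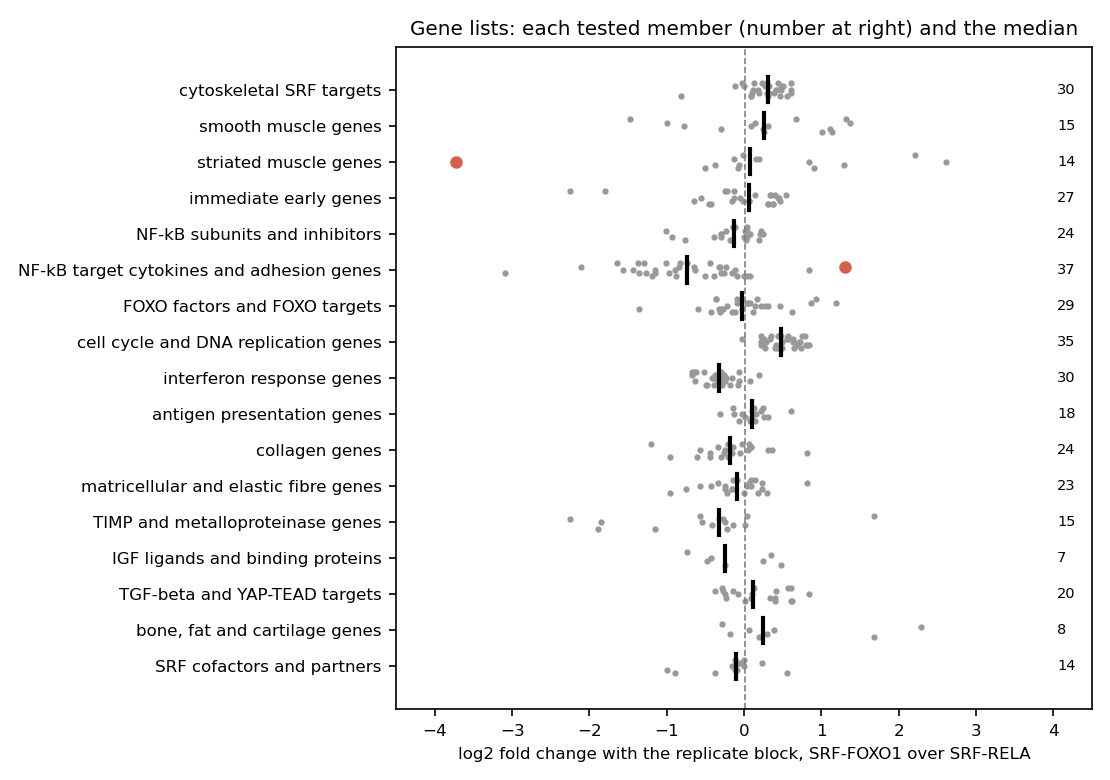
Log2 fold change with the replicate block, SRF-FOXO1 over SRF-RELA, of each tested member (points) of the 17 gene lists, with the list median (black bar), the number tested (right) and the median of all tested genes (dashed line); red points, MYOZ1 and PLAU, were called. NF-kB target genes lie mostly below 0 (33 of 37) and cell cycle genes mostly above it (34 of 35), while 9624 of all 18544 tested genes lie above 0. The median went the other way in pair 1 for NF-kB targets (0.66). In pair 2 it was -0.10 for cell cycle genes, where that of all tested genes was -0.05.

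**Figure D5:**
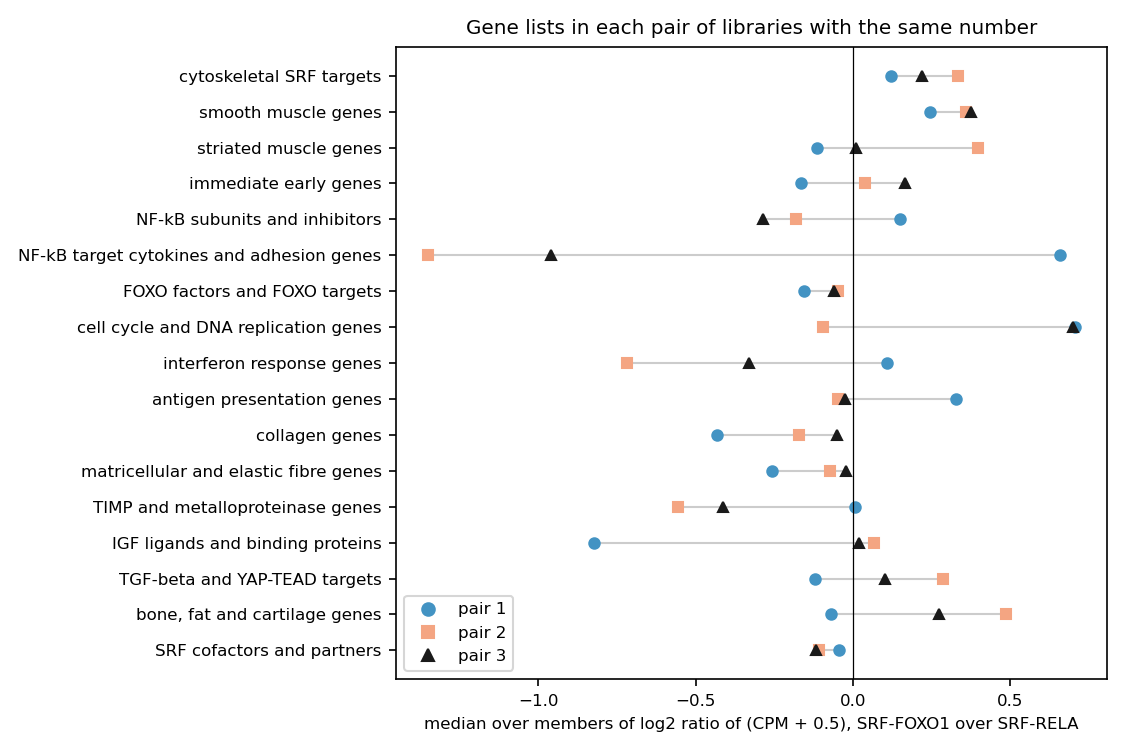
Median over the tested members of each list of the log2 ratio of (CPM + 0.5), SRF-FOXO1 over SRF-RELA, in each of the 3 pairs of libraries with the same number (marker shape and colour). NF-kB target genes run from -1.35 to 0.66 across the pairs, while cytoskeletal SRF targets stay between 0.12 and 0.34.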

How the data were processed

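RNA of MSC-hTERT cells was sequenced as stranded mRNA libraries, per the labels' protocols. Raw counts by Ensembl identifier were deposited as one table, per the file headers. The submitters' processing notes name FastQC 0.11.8, Trimmomatic 0.39, HISAT2, featureCounts, Subread 2.0.3 and GRCh38; annotation release and strand setting are not given in the sources used here, so reads of overlapping or similar genes could be split. Symbols came from a gene name table for 61369 of 61487 identifiers and from GENCODE release 29 for 105 more.

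edgeR 4.0.16 in R 4.3.3 was run on the counts of 18 libraries, with filterByExpr (minimum count 10), TMM scaling and a robust quasi-likelihood F test, two-sided, with Benjamini-Hochberg adjustment over 18544 genes. The fit was repeated with the replicate number as a block; same-number libraries correlated at 0.34 to 0.40, over the limit of 0.1. The SE is the absolute log2 fold change over the square root of F. CPM uses library totals, and its precision is limited by totals of at least 21618533 counts. Alternatives included DESeq2 1.42.0.

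Members and gene lists were chosen with earlier results of these data known. Named genes were the construct genes, called genes (up to 15 higher and 15 lower with the block), a fixed panel of 20, and each list's member with the smallest p-value with the block. Among these, 1 called gene and 1 list member are counted but not reported by name here.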

Additional observations from a re-analysis of the deposited data

How the results depend on the processing

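Without the replicate block, 1 gene was called under DESeq2 size factors, total-count scaling, at least 10 counts in every library, only the 2 groups in the fit, and calls limited to 2-fold or larger changes; 3 were called with no count filter and 20 with the DESeq2 Wald test, and 1 to 7 without one library. With the replicate block 31 were called. In the fits with the block, 252 were called with no count filter, 9 with at least 10 counts in every library, 300 with the DESeq2 Wald test, and 6, 53 and 67 without SRF-FOXO1 library 2, 3 and 1 and 8, 9 and 10 without SRF-RELA library 1, 2 and 3; the settings that changed scaling, filter or call rule under the block were chosen after seeing the data. Of the 31 genes, 30 remained called with DESeq2 size factors, 28 with total-count scaling, 29 with no filter, 9 (of 20 tested) with at least 10 counts in every library and 15 (of 30 tested) with only the 2 groups, each with the block. The count of genes with an interval inside -1 to 1 was 11026 to 13227 over 13 settings. Over 22 lists and all settings, 469 list medians moved by less than the SD over the 3 pairs and 79 by more. The cause of these changes was not tested.

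Of 66 named genes, 57 kept their sign in every setting run, and none of the other 9 was called. MKI67 was at -0.022 with the replicate block, and under the block at -0.045 with no filter, -0.035 with at least 10 counts in every library, -0.031 with DESeq2 size factors, -0.045 with total-count scaling, -0.035 with the DESeq2 Wald test and -0.068 with only the 2 groups. Without one library and without the block, the log2 fold changes ran from -0.32 to 1.08 for CNN1, -1.57 to 1.33 for MYH11, -0.21 to 3.28 for ACTC1, -0.88 to 0.81 for FOS, -1.06 to 0.26 for EGR1, -1.52 to 0.20 for IL6, -0.062 to 0.034 for CDKN1B, -0.17 to 0.43 for TXNIP and -0.78 to 0.60 for MKI67. With the replicate block the reversed values were, for MYH11, 0.083 without SRF-FOXO1 library 1, 0.81 without SRF-RELA library 2; for IL6, 0.20 without SRF-RELA library 2; for CDKN1B, 0.00944 without SRF-FOXO1 library 3; for TXNIP, -0.0080 without SRF-FOXO1 library 1, -0.087 without SRF-RELA library 2; for MKI67, -0.36 without SRF-FOXO1 library 3, -0.010 without SRF-RELA library 2, -0.20 without SRF-RELA library 3. Depth limits the genes with few counts, such as GLRA3, MYOZ1 and KRT12.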

Other observations

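Levels of the called genes were also read in the other groups. For the 20 genes called higher in SRF-FOXO1 with the block, the pMSCV mean lay nearer to SRF-RELA than to SRF-FOXO1 in 20 of 20, as did the means of SRF-ICA1L and SRF-PDGFRB, with the SRF mean nearer in 19 of 20. Over all tested genes the SRF-RELA mean was the nearer one for 63.8% in pMSCV, 54.1% in SRF, 53.3% in SRF-ICA1L and 64.9% in SRF-PDGFRB. Of the 10 genes called lower besides RELA, the SRF-ICA1L mean lay nearer to SRF-RELA in 10 of 10, the pMSCV and SRF means in 4 of 10 each, and the SRF-PDGFRB mean in 3 of 10. ITIH3 was at 9.95 ± 6.24 CPM in SRF-ICA1L, EXTL1 at 6.02 ± 1.74, CDH3 at 28.4 ± 11.0, KRT12 at 2.01 ± 0.76 and SLC5A3 at 116 ± 26.8 (SD, n = 3), against SRF-RELA means of 12.1, 4.28, 29.5, 2.19 and 115 CPM. Nearness was read on a scale of log2(CPM + 0.1), with no test, and the genes were selected on the SRF-FOXO1 and SRF-RELA libraries.

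Library 2 was the highest of its group in both fusions for 14 of the 31 called genes, and the lowest in both for 3. Over all 18544 tested genes these shares were 12.7% and 27.9%. The 31 were chosen on these libraries, and no test was made.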
